A study of Gallus gallus with 6 samples.

Results

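Carbonic anhydrase genes were followed in the uterovaginal junction of breeder hens, the segment of the oviduct between uterus and vagina that holds the sperm storage tubules. Rows were chosen by gene symbol from a list of 10 members of the family, with no cut on their measured values, although earlier results of these data were known. Of these, 7 had a row among the 20285 rows of the count table (CA2, CA4, CA6, CA8, CA9, CA12 and CA13), and CA3, CA7 and CA14 were not analysed here. All 7 had enough reads to be tested, as did 15655 rows in all. A further 7 rows of the wider family, described after the members, were CA5B, CA10, CA3A, CA3B, PTPRG, PTPRZ1 and a CA15-like row that has no symbol in the count table. The study used RNA-seq of poly-T selected RNA to compare 3 libraries at a thermoneutral 23 °C with 3 libraries of hens held at 36 °C for 6 h. Each library pooled the RNA of 4 hens, 24 hens in all, so a replicate is a pool and the spread reported is between pools of whole tissue, not between hens. The labels give no strain, age or laying state, and both groups are otherwise described alike.

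Carbonic anhydrases are zinc enzymes that interconvert carbon dioxide and water with bicarbonate and a proton. They differ mainly in where they work: CA2 and CA13 in the cytosol, CA4 anchored to the outer face of the cell membrane, CA9 and CA12 spanning the membrane with an outward-facing catalytic domain, and CA6 secreted. CA8 keeps the fold but lacks the zinc-binding residues needed for activity. In the hen oviduct the uterus, or shell gland, uses the reaction to supply carbonate for the eggshell, and carbonic anhydrase activity has been described by histochemistry in the cells of the sperm storage tubules.

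Library totals ran from 23438814 to 29502991 counts. On the first principal component of log2 CPM, counts scaled to library size (46.8% of the variance), the thermoneutral libraries lay at −27.1, −31.3 and −33.7. The heat stress libraries lay at 10.9, 44.1 and 37.1, so heat stress replicate 1 stood nearest to the thermoneutral libraries. Some oviduct, epithelial and ciliated cell transcripts were abundant, which does not tell the uterovaginal junction from other oviduct segments. RARRES1, a shell gland marker, averaged 2450 CPM in thermoneutral libraries, and AVD and HOXD10 of the oviduct list only 5.72 and 0.685 CPM. Among the abundant ones were PGR, the progesterone receptor, at 522 ± 63.3 CPM (mean ± SD, n = 3 thermoneutral libraries), EPCAM, an epithelial adhesion protein, at 1999 ± 74.6 CPM, and FOXJ1, the regulator of motile cilia, at 538 ± 26.7 CPM.

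Among the 7 members, carbonic anhydrase transcripts of the uterovaginal junction were mostly CA4. Levels between genes were compared per length, as the deposited FPKM (fragments scaled by transcript length and library size). CA4 averaged 1432 ± 911 FPKM (mean ± SD, n = 6 libraries) and made up 88.8% to 97.9% of the summed FPKM of the 7 members in a library. Its row (ENSGALG00000005360) lies on the minus strand of chromosome 19, at chr19:8243835-8262292 in GRCg6a. CA4 FPKM was 1142, 761 and 2488 in thermoneutral replicates 1, 2 and 3 and 2606, 401 and 1196 in heat stress replicates 1, 2 and 3. The highest and the lowest library both came from hens under heat stress, and the groups overlapped.

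CA2, the fast cytosolic isoform that is also abundant in red blood cells, was next among the members. CA2 averaged 41.8 ± 2.75 FPKM over the 6 libraries, so that mean CA4 stood 34.2 times higher. CA5B, a row of the wider family and not in this sum, was near CA2 at 39.5 ± 6.24 FPKM. The ratio of CA4 to CA2 FPKM was 28.5, 17.9 and 65.3 in thermoneutral replicates 1 to 3 and 56.6, 9.29 and 29.1 in heat stress replicates 1 to 3. CA4 led in all 6 libraries, but by a margin that varied widely between them. CA12 followed at 7.54 ± 4.03 FPKM and was above the next member, CA9, in 6 of 6 libraries, with ranges that did not overlap. CA9 at 2.89 ± 0.743 and CA8 at 2.70 ± 1.47 FPKM were not separated, since their ranges overlapped and CA9 was the higher in 3 of 6 libraries. CA13 at 0.746 ± 0.379 and CA6 at 0.621 ± 0.322 FPKM also overlapped, CA13 being higher in 5 of 6 libraries. CA8 was above CA13 in 6 of 6 libraries, although their ranges over all libraries overlapped.

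**Figure D1:**
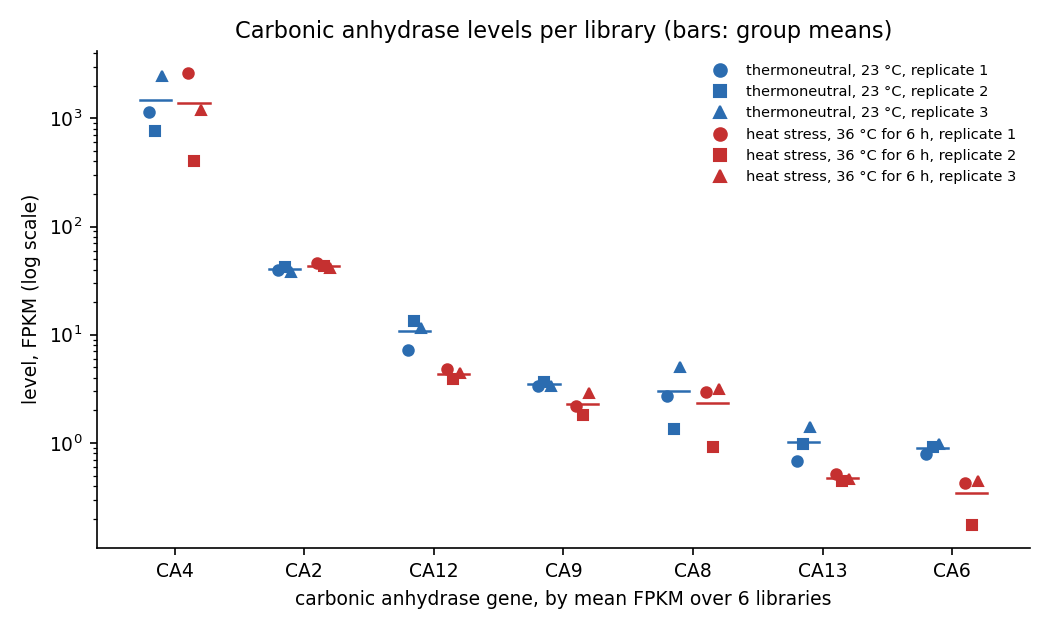
FPKM of the 7 carbonic anhydrase members in each library on a log axis, ordered by mean over 6 libraries, with blue for thermoneutral and red for heat stress, a symbol for each replicate and a bar at each group mean. CA4 lies between 401 and 2606 FPKM, above all other members in every library, CA2 lies in a narrow band from 38.1 to 46.1, and the other 5 lie under 13.5.

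The comparison of 36 °C with 23 °C asked which of these transcripts changed with acute heat. CA12 and CA6 fell, CA12 to 2.29-fold and CA6 to 2.43-fold lower CPM. In such whole tissue, fewer cells of a type and less RNA per cell cannot be told apart. No member rose. CA9 and CA13 had lower CPM under heat stress and CA2 higher, in each case with groups that did not overlap, but none of these passed the test, and CA4 and CA8 overlapped between groups. On the counts, the quasi-likelihood test of edgeR, adjusted by Benjamini-Hochberg over all 15655 tested rows (threshold 0.05), called 0 of 7 members higher and 2 lower. Across all rows 19.8% were called, 10.2% higher and 9.52% lower. Higher calls were 51.8% of all calls, and 41.4% under upper-quartile scaling. Groups did not overlap for 5 of the 7 members, 4 of them lower under heat stress, and for 42.6% of all tested rows, 21.0% being lower under heat stress. The members' median log2 change was −0.49 beside −0.01 over all tested rows, and with 7 members nothing particular to the family is read from these counts.

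**Figure D2:**
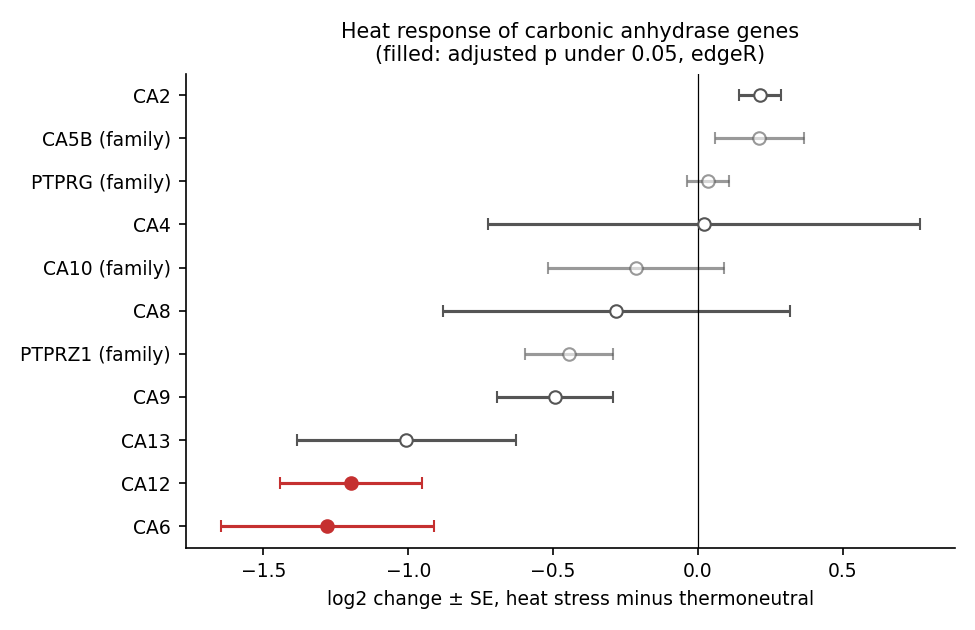
Log2 change (heat stress minus thermoneutral) with its SE for each tested carbonic anhydrase row, filled where the edgeR adjusted p is under 0.05. Other rows are open and grey, and rows of the wider family are fainter and labelled as family. CA12 at −1.20 and CA6 at −1.28 are the filled points, and the widest error, 0.74, belongs to CA4.

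Among the membrane-bound isoforms, CA4 differed by less than the spread between pools. Its CPM, scaled by TMM library sizes, was 3005, 2022 and 6630 in thermoneutral replicates 1 to 3 and 7242, 1166 and 3420 in heat stress replicates 1 to 3. Heat stress replicate 1 and thermoneutral replicate 3 were high and heat stress replicate 2 was low, so that high and low libraries occurred in both groups. The means were 3886 ± 2427 and 3943 ± 3072 CPM (SD, n = 3 each), with a log2 change of 0.02 ± 0.74 (SE), an edgeR adjusted p of 0.987 and an exact two-sided permutation p of 1.0. The sign of this change was not fixed: leaving out heat stress replicate 1 gave −0.75, and leaving out thermoneutral replicate 3 gave 0.65.

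CA4 was among the most variable transcripts of the tissue within a group. Its within-group SD was 1.12 on the log2 CPM scale, and only 1.05% of the 14320 tested rows with a mean of at least 1 CPM had a larger SD. The highest pool exceeded the lowest 3.28-fold among thermoneutral and 6.21-fold among heat stress libraries. By counts CA4 ranked from 1st in thermoneutral replicate 3, where it took 0.683% of all counts (95% Wilson interval 0.680 to 0.687), to 66th in heat stress replicate 2, where it took 0.110% (0.109 to 0.111). These intervals cover counting error only.

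Wholly covering the CA4 row on the plus strand are ZNHIT3, a zinc finger protein gene, and a row without a symbol (ENSGALG00000005350). Whether the counting used strand is not stated, so reads of these rows and of CA4 cannot be told apart with certainty. ZNHIT3 ranged from 30.0 to 37.3 CPM and the unnamed row from 39.5 to 60.1 CPM over the 6 libraries, both far under the lowest CA4 value of 1166 CPM. The unnamed row rose under heat stress (log2 change 0.38 ± 0.10 SE, edgeR adjusted p = 0.0313), and ZNHIT3 did not pass (edgeR adjusted p = 0.573).

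CA12, which in mammals serves acid-base and fluid transport in secretory epithelia, fell under heat stress. Its row (ENSGALG00000003456) lies at chr10:4543071-4556711 on the plus strand. CA12 CPM was 6.64, 12.5 and 10.6 in thermoneutral replicates 1 to 3 and 4.62, 3.91 and 4.43 in heat stress replicates 1 to 3. All heat stress pools were low and close to each other, all thermoneutral pools were higher and more spread, and the groups did not overlap. The means were 9.91 ± 2.98 and 4.32 ± 0.369 CPM (SD, n = 3 each), a log2 change of −1.20 ± 0.25 (SE) with an edgeR adjusted p of 0.0185. An exact two-sided permutation test gave p = 0.1, the smallest that 3 against 3 allows. The call was lost when thermoneutral replicate 2 or 3, or heat stress replicate 2 or 3, was left out (edgeR adjusted p 0.0673, 0.0569, 0.0548 and 0.0715), fits that have 5 libraries, and the log2 change stayed between −1.42 and −0.997. The nearest rows, USP3 at 18122 bases before and RAB8B at 6402 bases after CA12, both on the minus strand, had log2 changes of 0.12 and 0.08 and did not pass.

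CA9, a membrane isoform that is strongly induced by low oxygen in human cells, was lower in every heat stress pool without passing. Its CPM was 7.57, 8.30 and 7.58 in thermoneutral replicates 1 to 3 and 5.18, 4.45 and 7.04 in heat stress replicates 1 to 3. Heat stress replicate 3 lay just under the lowest thermoneutral pool and the other heat stress pools lay clearly lower. The means were 7.82 ± 0.420 and 5.56 ± 1.34 CPM (SD, n = 3 each), with a log2 change of −0.49 ± 0.20 (SE), an edgeR unadjusted p of 0.0402 and an adjusted p of 0.119. The row (ENSGALG00000021340, chrZ:9225475-9236423, minus strand) shares 261 bases with an unnamed plus-strand row whose log2 change was −0.18, and reads in that stretch are uncertain.

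Of the cytosolic isoforms, CA2 (ENSGALG00000030781, chr2:122766240-122822370, plus strand) was the steadiest member. Its CPM was 67.5, 72.4 and 65.1 in thermoneutral replicates 1 to 3 and 82.0, 80.4 and 75.4 in heat stress replicates 1 to 3. Every heat stress pool lay above every thermoneutral pool, by a small margin. The means were 68.3 ± 3.75 and 79.3 ± 3.46 CPM (SD, n = 3 each), a 1.16-fold difference with a log2 change of 0.21 ± 0.07 (SE), an edgeR unadjusted p of 0.0190 and an adjusted p of 0.0740. The within-group SD of CA2 was 0.07 on the log2 CPM scale, and 86.4% of tested rows with a mean of at least 1 CPM varied more. CA2 is abundant in red blood cells, and of 9 tested erythroid markers 0 were called in either direction, beside 19.8% of all rows. Log2 changes were negative for 6 of the 9, with a median of −0.21, and groups did not overlap for 3, beside 42.6% of all rows. The summed level of the 12 erythroid rows found of 22 was 281.8 to 331.7 CPM in thermoneutral and 255.9 to 298.9 CPM in heat stress libraries. ALAS2, SLC4A1 and TFRC gave most of it, at thermoneutral means of 83.7, 71.7 and 53.6 CPM. The globin rows HBBA and HBA1 were at 37.08 and 35.05 CPM. The part of red blood cells in the CA2 level was not tested.

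CA13, a second cytosolic isoform (ENSGALG00000033428, chr2:122624567-122638462, plus strand), was near the limit of what these libraries resolve. It had 16, 23 and 35 counts in thermoneutral replicates 1 to 3 and 13, 13 and 11 in heat stress replicates 1 to 3. The heat stress pools were uniformly low and the thermoneutral pools higher and uneven. The means were 0.986 ± 0.358 and 0.489 ± 0.0295 CPM (SD, n = 3 each), with a log2 change of −1.01 ± 0.38 (SE) and an edgeR adjusted p of 0.0984.

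CA13 and CA2 are the ends of a run of 4 carbonic anhydrase rows on the plus strand of chromosome 2, within 197.8 kb, with CA3A and CA3B between them. The run was not expressed evenly: summed over the 6 libraries, the counts were 111 for CA13, 5 for CA3A, 33 for CA3B and 11112 for CA2. CA3 is a cytosolic isoform of low activity, best known from skeletal muscle in mammals. CA3A was at 0 in 3 libraries and at 3 counts or fewer in the others, and CA3B had 2 to 8 counts a library, so neither was tested. A count of 0 allows up to 3 counts, which is 0.108 to 0.130 CPM in these libraries.

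CA6, the secreted isoform known in mammals from saliva and milk, fell under heat stress. Its row (ENSGALG00000002390) lies at chr21:3234528-3244322 on the plus strand. CA6 had 47, 55 and 62 counts in thermoneutral replicates 1 to 3 and 27, 13 and 27 in heat stress replicates 1 to 3, or 1.90, 2.27 and 2.41 against 1.08, 0.466 and 1.17 CPM. Every heat stress pool was below every thermoneutral pool, and heat stress replicate 2 was lowest. The means were 2.19 ± 0.263 and 0.908 ± 0.385 CPM (SD, n = 3 each), a log2 change of −1.28 ± 0.37 (SE) with an edgeR adjusted p of 0.0473. An exact two-sided permutation test again gave 0.1, the smallest possible p. The call sat close to the threshold: without any single library the edgeR adjusted p was 0.0534 to 0.124, while the log2 change stayed between −1.51 and −0.95.

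CA6 has close neighbours on the opposite strand. ENO1, the glycolytic enzyme enolase, lies 1464 bases before it with its start nearest to CA6, at 695 to 820 CPM. SLC2A5, a fructose transporter, follows CA6 without a gap and with its end nearest, at 1.38 to 3.30 CPM. ENO1 had a log2 change of −0.18 ± 0.07 (edgeR adjusted p = 0.110) and SLC2A5 of 0.21 ± 0.39 (edgeR adjusted p = 0.724). How much of the CA6 count could come from reads of these rows was not tested.

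**Figure D3:**
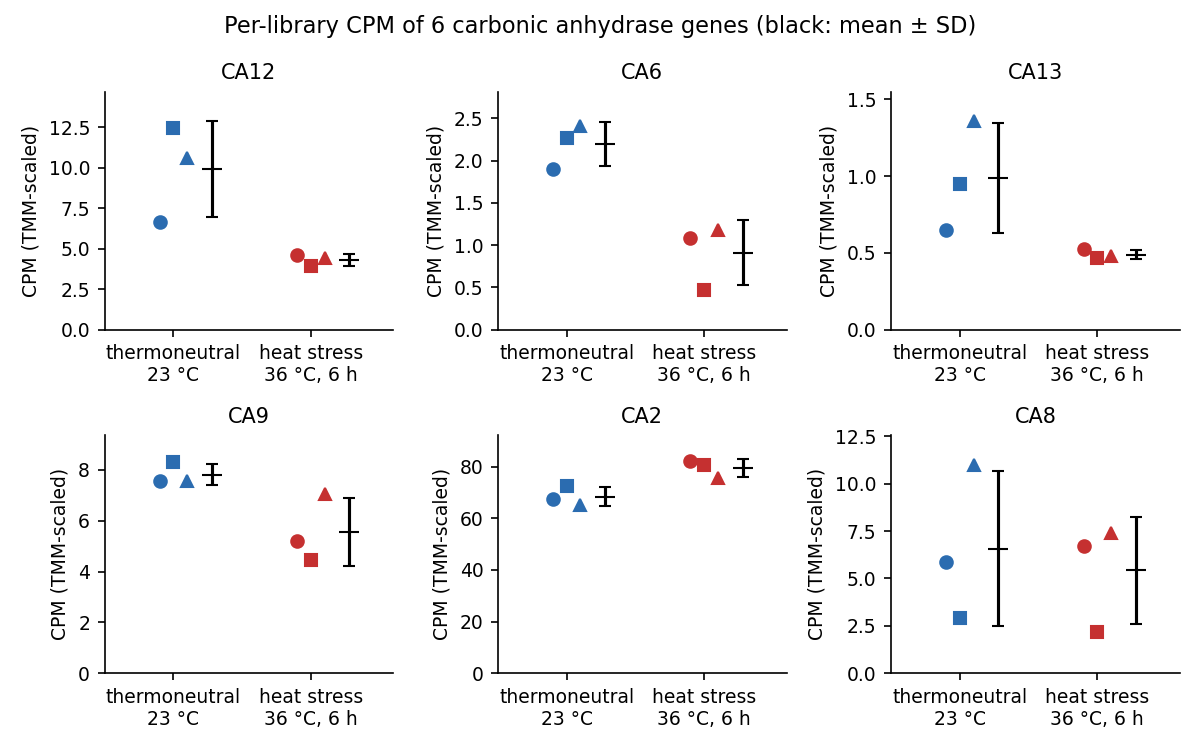
TMM-scaled CPM of 6 members in each library, with axes from 0, blue for thermoneutral, red for heat stress, a symbol for each replicate and the mean ± SD (n = 3) in black. The groups separate for CA12, CA6, CA13, CA9 and CA2, the last with heat stress above thermoneutral, and overlap for CA8.

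CA8, the inactive relative that binds an inositol trisphosphate receptor in mammalian neurons, overlapped between groups. Its row (ENSGALG00000039145) lies at chr2:112701443-112753254 on the minus strand. CA8 CPM was 5.87, 2.89 and 10.96 in thermoneutral replicates 1 to 3 and 6.71, 2.19 and 7.39 in heat stress replicates 1 to 3. Thermoneutral replicate 3 was highest and heat stress replicate 2 lowest, as each group held both high and low pools. Within a group CA8 was nearly as variable as CA4. Its SD was 0.95 on the log2 CPM scale, and 1.37% of tested rows with a mean of at least 1 CPM had a larger SD. The means were 6.57 ± 4.08 and 5.43 ± 2.83 CPM (SD, n = 3 each), with a log2 change of −0.28 ± 0.60 (SE), an edgeR adjusted p of 0.767 and an exact permutation p of 0.7. Its sign was not fixed either, at 0.31 when thermoneutral replicate 3 was left out and 0.11 when heat stress replicate 2 was.

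CA4 and CA8 were high and low in nearly the same libraries. Over the 6 libraries, log2 CPM of CA4 and CA8 had a Pearson r of 0.899 and a Spearman rho of 0.829. The pair was chosen after the values were seen, because both genes overlapped between groups, so these are descriptions without a test. Without heat stress replicates 1 and 2, the libraries farthest from the median of CA4, r was 0.949 over 4 libraries, and on deviations from the group means it was 0.90.

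Some other transcripts of the oviduct, picked from the lists after their values were seen, had the same high and low libraries. RARRES1, whose product is an eggshell matrix protein also known as ovocalyxin-32, was at 1293, 1405 and 4652 CPM in thermoneutral replicates 1 to 3 and 8860, 1130 and 3586 CPM in heat stress replicates 1 to 3. EDIL3, a vesicle-associated eggshell protein, was at 182, 120 and 283 CPM and at 334, 112 and 328 CPM in the same order. AVD, which encodes avidin, a biotin-binding egg white protein, was at 3.60, 3.39 and 10.2 CPM and at 17.5, 2.19 and 5.30 CPM. Like CA4, RARRES1, EDIL3 and AVD were highest in heat stress replicate 1 and lowest in heat stress replicate 2. The oviduct list that holds AVD did not share this order as a whole. PGR was highest in heat stress replicate 1, at 632 CPM, but PAX2 in heat stress replicate 2, at 212 CPM.

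Of the 20 bicarbonate and anion transporter rows, a pair picked after the values were seen was also high and low in similar libraries, over a narrower range. SLC4A4, a sodium bicarbonate cotransporter, was at 115, 81.2 and 191 CPM in thermoneutral replicates 1 to 3 and 185, 97.3 and 182 CPM in heat stress replicates 1 to 3. CFTR, an anion channel, was at 51.4, 47.1 and 77.4 CPM and at 84.8, 44.6 and 57.9 CPM. SLC4A4 was lowest in thermoneutral replicate 2 and highest in thermoneutral replicate 3, and CFTR had the extremes of CA4. The list as a whole did not share this order: SLC4A1, an anion exchanger of red blood cells, was at 77.6, 85.5 and 51.9 CPM in thermoneutral replicates 1 to 3 and 50.2, 78.1 and 57.1 CPM in heat stress replicates 1 to 3, lowest where CA4 was highest. SLC4A4 and CFTR did not pass the comparison of heat stress with thermoneutral, at edgeR adjusted p of 0.666 and 0.849.

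**Figure D4:**
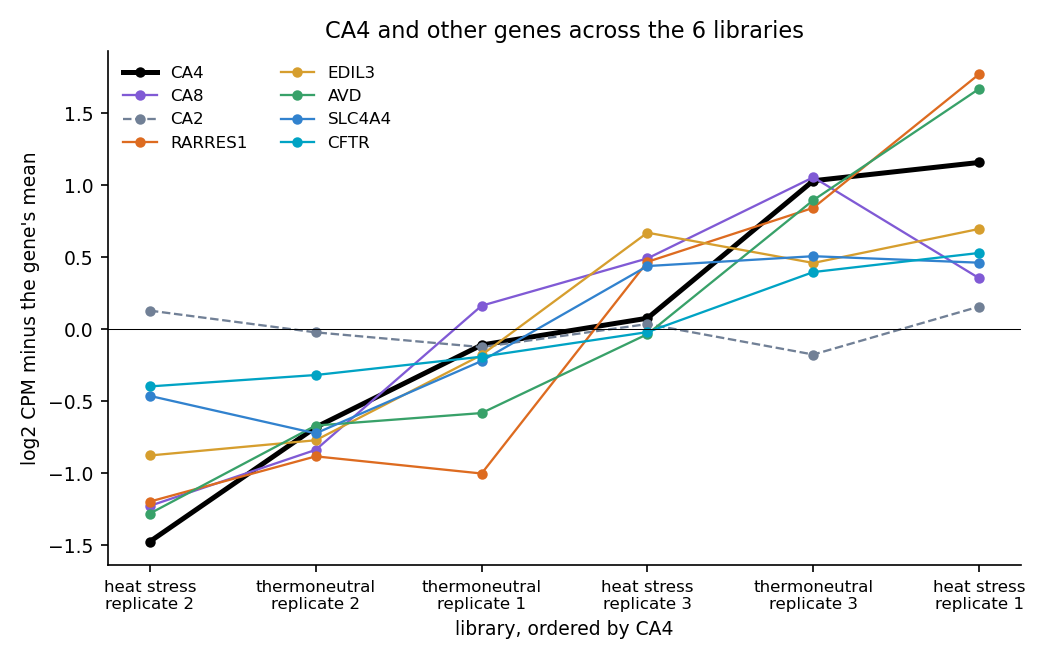
Log2 CPM of CA4, CA8, CA2 and 5 other genes in each library, minus the gene's own mean, with the libraries ordered along the axis by CA4 from heat stress replicate 2 to heat stress replicate 1. CA4 runs from −1.48 to 1.16, and CA2, dashed, stays between −0.18 and 0.16. CA8 and the 5 other genes were chosen after their values were seen, so that most lines rise with CA4 follows from this choice. Members of the same lists that ran otherwise, such as SLC26A9, SLC4A1 and PAX2, are not drawn.

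Of 12 shell gland markers, 3 had a row (RARRES1, EDIL3 and SLC26A9), and the other 9, CALB1 among them, were not analysed here. SLC26A9, an anion transporter too low to be tested, was at 0.243, 0.0826 and 0.156 CPM in thermoneutral replicates 1 to 3 and 0.402, 1.29 and 0.609 CPM in heat stress replicates 1 to 3. Unlike CA4, SLC26A9 was highest in heat stress replicate 2. The summed level of these 3 was 1475 to 4936 CPM in thermoneutral and 1243 to 9194 CPM in heat stress libraries, most of it RARRES1, and 0 of the 2 tested were called. Its part in the spread of CA4 was not tested. The summed level of the 8 epithelial rows found of 12 was 6705 CPM in thermoneutral replicate 3 and 6530 CPM in heat stress replicate 1, the libraries with most CA4, and up to 7802 CPM elsewhere. The epithelial markers were not alike: KRT19, a keratin, was at 1329 and 1071 CPM in those libraries and at 1898 CPM in heat stress replicate 2. EPCAM was at 1995, 1927 and 2076 CPM in thermoneutral replicates 1 to 3 and 2460, 2150 and 2474 CPM in heat stress replicates 1 to 3. Within each group EPCAM was thus lowest where CA4 was lowest. Of the 11 smooth muscle rows found of 12, the sum was 5667, 9111 and 8511 CPM in thermoneutral replicates 1 to 3 and 5393, 7180 and 6542 CPM in heat stress replicates 1 to 3.

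The genes most like CA4 in log2 CPM over the 6 libraries, among 10645 named rows with a mean of at least 1 CPM, were C1orf115 (Pearson r = 0.996), RAP1GAP2 (0.995) and TMEM167A (0.994). All had a far smaller range than CA4, C1orf115 running from 356.5 CPM in heat stress replicate 2 to 478.6 CPM in heat stress replicate 1. Most like CA2 were MFSD1 (0.992) and SCRN3 (0.985). CA12 was most like CERCAM (0.997), EXFABP, an extracellular fatty acid-binding protein (0.997), and ESR1, the estrogen receptor alpha (0.995). ESR1 CPM was 14.0, 16.7 and 16.2 in thermoneutral replicates 1 to 3 and 13.1, 12.1 and 12.8 in heat stress replicates 1 to 3. Such values over 6 libraries describe likeness only: 177 rows exceeded r = 0.9 with CA4, 186 with CA2 and 464 with CA12.

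In the wider family, CA5B, a mitochondrial isoform by its symbol, was expressed at about the level of CA2. The RefSeq table gives the same gene number the symbol CA5A, so which mitochondrial isoform the row holds is uncertain. CA5B averaged 39.5 ± 6.24 FPKM (n = 6 libraries), and its CPM was 72.6, 60.2 and 83.4 in thermoneutral replicates 1 to 3 and 92.1, 68.1 and 90.1 in heat stress replicates 1 to 3. The groups overlapped, and the log2 change of 0.21 ± 0.15 (SE) had an edgeR adjusted p of 0.358.

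PTPRZ1, PTPRG and CA10, whose carbonic anhydrase-like domain lacks carbonic anhydrase activity, did not pass. PTPRZ1, a receptor tyrosine phosphatase, was at 7.0, 8.42 and 8.20 CPM in thermoneutral replicates 1 to 3 and 5.91, 5.52 and 5.91 CPM in heat stress replicates 1 to 3. These groups did not overlap, and the log2 change of −0.45 ± 0.15 (SE) had an edgeR adjusted p of 0.0752. PTPRG, its closest relative, was even across libraries at 47.5 ± 0.554 and 48.7 ± 2.63 CPM (SD, n = 3 each). CA10, a secreted neural relative, was at 3.10 ± 1.14 and 2.67 ± 0.302 CPM (edgeR adjusted p = 0.647). Apart from these relatives, the CA15-like row had 9 counts in all and was not tested.

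Genes that move bicarbonate, protons, lactate and carbon dioxide alongside the carbonic anhydrases were called in both directions, about as often as all tested rows. Nothing particular to these genes is read from the counts of calls. Over 4 lists of such genes, 36 of 43 rows found were tested, of which 4 rose, 4 fell and 28 did not pass in edgeR's quasi-likelihood test, beside 10.2% higher and 9.52% lower over all rows. The median log2 change was −0.04. Leaving out thermoneutral replicate 1, 2 or 3 gave 3, 1 and 4 calls, and leaving out heat stress replicate 1, 2 or 3 gave 12, 3 and 0.

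Of 16 tested bicarbonate and anion transporters, 2 rose and 1 fell, beside 10.2% higher and 9.52% lower over all rows. Their median log2 change was −0.02. SLC4A3, a chloride bicarbonate exchanger, rose from 50.0 ± 9.95 to 88.3 ± 17.4 CPM (SD, n = 3 each; log2 change 0.82 ± 0.19 SE, edgeR adjusted p = 0.0288). SLC26A2, a sulfate transporter, rose from 18.7 ± 2.15 to 25.3 ± 0.467 CPM, and SLC26A11, a member of the same anion transporter family, fell from 17.0 ± 2.50 to 7.11 ± 2.45 CPM. The log2 changes of SLC26A2 and SLC26A11 were 0.44 ± 0.11 and −1.26 ± 0.25 (SE), with edgeR adjusted p of 0.0285 and 0.0164.

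Of 8 tested sodium proton exchangers and their scaffolds, SLC9A3R2, a scaffold, rose from 189 ± 13.0 to 239 ± 25.2 CPM (SD, n = 3 each; edgeR adjusted p = 0.0458), and 7 did not pass. The call for SLC9A3R2 was lost in 4 of 7 other settings, at adjusted p up to 0.0694. Of 5 tested lactate and proton cotransporters, SLC16A7 fell from 13.5 ± 1.59 to 6.73 ± 2.47 CPM (edgeR adjusted p = 0.0351). BSG, a partner that carries some transporters of this family to the membrane, was at 816 ± 13.9 and 822 ± 13.8 CPM and did not pass. Beside the calls in both lists stand 10.2% higher and 9.52% lower over all rows.

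Of 7 tested gas and proton channels and pumps, 1 rose and 2 fell, beside 10.2% higher and 9.52% lower over all rows. Their median log2 change of −0.73, beside −0.01 over all tested rows, was the value of RHAG. That row had an SE of 0.54, lay at 0.964 to 4.35 CPM and did not pass. The summed level of the list was 311.7 to 360.2 CPM in thermoneutral and 392.0 to 478.2 CPM in heat stress libraries, most of it AQP1. AQP1, a water channel that also passes carbon dioxide, rose from 237 ± 29.8 to 381 ± 50.2 CPM (SD, n = 3 each; log2 change 0.69 ± 0.13 SE, edgeR adjusted p = 0.0146). HVCN1, a voltage-gated proton channel, fell from 45.1 ± 5.12 to 28.7 ± 1.05 CPM (edgeR adjusted p = 0.0106). RHBG, an ammonia channel, fell from 41.2 ± 0.919 to 30.2 ± 4.79 CPM (edgeR adjusted p = 0.0352). ATP12A, a proton potassium pump, was at 8.33 ± 3.44 and 4.41 ± 0.222 CPM and did not pass.

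Genes known in mammals to be induced by low oxygen, the class to which CA9 belongs in human cells, changed in both directions. Of 18 tested rows 4 rose, 1 fell and 13 did not pass, beside 10.2% higher and 9.52% lower over all rows, with a median log2 change of 0.20. P4HA2 and P4HA1, subunits of the collagen prolyl hydroxylase, rose from 81.0 ± 8.16 to 399 ± 188 CPM and from 161 ± 4.54 to 262 ± 16.5 CPM (SD, n = 3 each; edgeR adjusted p = 0.0176 and 0.00738). EGLN1, an oxygen-sensing prolyl hydroxylase, rose from 144.5 ± 14.5 to 191 ± 7.69 CPM (edgeR adjusted p = 0.0213). BNIP3, a mitophagy receptor, also rose, LDHA, the lactate dehydrogenase subunit, fell, and VEGFA, the endothelial growth factor, was at 42.4 ± 1.62 and 44.2 ± 3.21 CPM and did not pass. Leaving out thermoneutral replicate 1, 2 or 3 gave 2, 1 and 3 calls in this list, and leaving out heat stress replicate 2 or 3 gave 2 and 1.

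**Figure D5:**
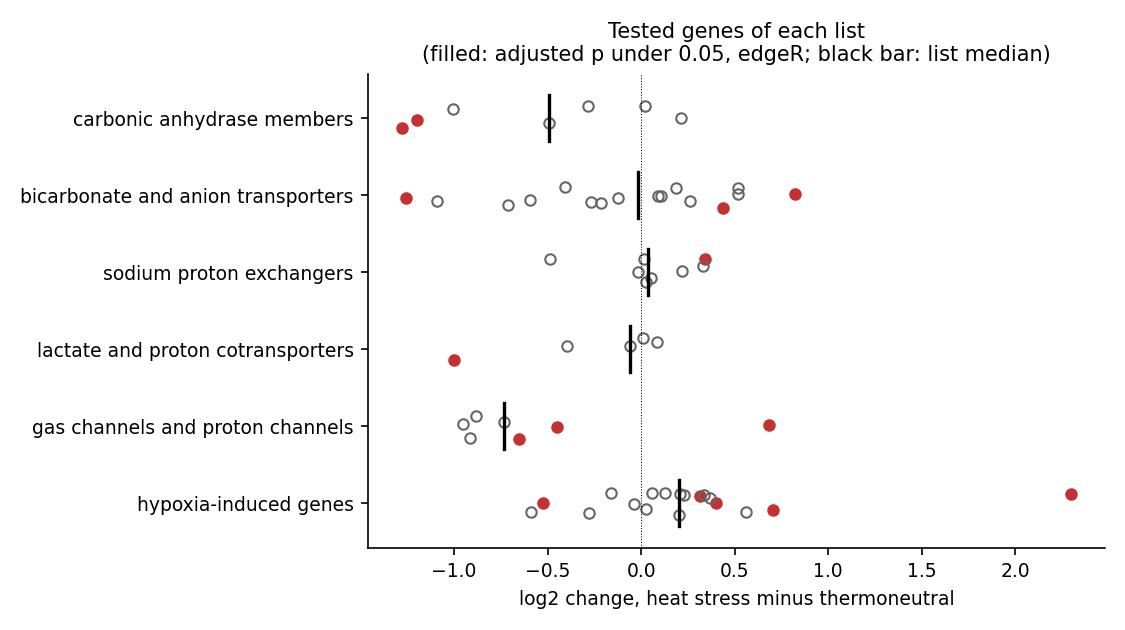
Log2 change (heat stress minus thermoneutral) of each tested gene in the carbonic anhydrase members, the 4 acid-base transport lists and the list of hypoxia-induced genes, filled where the edgeR adjusted p is under 0.05, with a black bar at each median. The filled points lie at negative values for the members and on both sides of 0 for the transport lists as a whole.

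Of the marker lists for other cells of the tissue, the macrophage list held the most calls. Of its 11 tested markers 4 fell and 0 rose, beside 9.52% lower over all rows, all 11 log2 changes were negative, and their median was −0.62. C1QC, C1QB and C1QA, subunits of complement C1q, were among those that fell, C1QC from 14.5 ± 1.33 to 7.27 ± 1.29 CPM (SD, n = 3 each; edgeR adjusted p = 0.0116). The summed level of the list was 629.9 to 754.4 CPM in thermoneutral and 432.6 to 695.2 CPM in heat stress libraries, most of it CTSS, a lysosomal protease at 505 ± 67.4 and 449 ± 145 CPM that did not pass. All 11 smooth muscle markers also had negative log2 changes, with a median of −0.39, but groups did not overlap for only 1 of them, beside 42.6% of all rows. Of 10 endothelial markers ROBO4 and EGFL7 fell, of 9 ciliated cell markers CFAP43 and ROPN1L, and of 8 epithelial markers ELF3. In each of these lists 4 log2 changes were positive, with medians of −0.05, −0.01 and 0.01, so the lists did not shift as a whole. Of 11 smooth muscle markers SYNPO2 fell. Of 3 tested skeletal muscle markers ACTA1 fell, while TNNI2 and TNNT3 had log2 changes of 0.87 and 0.25. Thermoneutral means were 75.2 CPM for ACTA1 but 0.771 and 1.45 CPM for TNNI2 and TNNT3. EMX2, an oviduct transcription factor, rose in the list of 9 oviduct markers. Calls were 0 of 6 adipocyte, 0 of 10 nerve and glia and 0 of 3 magnum markers, beside 19.8% of all rows. In each list some markers were detected, and no marker with a row was at 0 in all 6 libraries. The part of such marker changes in the lower CA12 and CA6 levels was not tested.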

How the data were processed

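Counts and FPKM values per gene for 6 libraries were used as the authors deposited them. The deposited counts are raw whole numbers, and the deposited FPKM are fragments the authors scaled by length and library size. The build was GRCg6a, and fastp, HISAT2 2.0.5 and featureCounts 1.5.0-p3 were used, per the submitters' processing notes. The labels' protocols state second-strand synthesis with dUTP. For the strand setting and annotation release, the value is not given in the sources used here. The deposited FPKM imply a shorter length than the listed one in 7198 of 18811 rows with reads (tolerance 0.001), CA8 and CA12 among them.

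Heat stress was compared with thermoneutral on the counts by edgeR 4.0.16 under R 4.3.3: TMM, filterByExpr, the robust quasi-likelihood fit, and Benjamini-Hochberg adjustment at 0.05 over the 15655 tested of 20285 rows. CPM use TMM-scaled library sizes. Log2 CPM used a prior count of 2, and the SE is the absolute log2 change over the square root of F. The fits were tested on simulated data. No pair of libraries within a group was a copy (chi-square over degrees of freedom 23.3 to 114).

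Members and lists were chosen with earlier results of these data known. Symbols came from the file, and for rows without one from the RefSeq table of GRCg7b by gene number, for names only. Named are all members and family rows, up to 3 called genes per pathway list by adjusted p, up to 3 called and 3 most abundant markers per cell type list as eligible, the 3 genes most like each of the 3 highest members, and the rows beside called members. Not every gene that this rule gives is reported here. BNIP3, LDHA, BSG, ATP12A, RHAG, VEGFA, AVD, SLC4A4 and CFTR were added after their values were seen. The alternatives tried were 2 scalings (RLE and upper-quartile), leaving rows unfiltered, a stricter filter (mean CPM of 5, and 1 CPM or more throughout a group), DESeq2 1.42.0, voom of limma 3.58.1, a block on the replicate number, and each library left out. No gene or protein sequences are shown.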

Additional observations from a re-analysis of the deposited data

How the results depend on the processing

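CA12 was called lower in 7 of 7 settings other than leaving out a library (edgeR, DESeq2 or voom adjusted p up to 0.0327) and in 2 of 6 fits without a library, with log2 changes from −1.42 to −0.997. CA6 was called in 5 of 6 such settings and in 0 of 6 fits without a library, at log2 changes from −1.51 to −0.95, and the stricter filter removed CA6 and CA13. The number of members called was 1 under the stricter filter, 1 with the replicate block and 0 to 1 without a library (1 without thermoneutral replicate 1 or heat stress replicate 1). The labels do not say whether replicate numbers pair the samples. Deviations from the group means correlated at −0.0481, 0.25 and 0.0716 for like numbers 1, 2 and 3, and at −0.274 to 0.207 for unlike numbers. Since the deviations of the 3 libraries of a group sum to 0, these values cannot settle whether samples were paired. With the replicate block 2722 genes were called in place of 3092, CA6 had a log2 change of −1.33 (edgeR adjusted p = 0.0585) and CA12 of −1.16 (0.0327).

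The CA4 change, never past the threshold, turned to −0.0186 under upper-quartile scaling, −0.0053 under the stricter filter, −0.15 with voom and −0.19 with the replicate block, and ran from −0.75 to 0.65 without a library. CA8 ran from −0.64 to 0.31, CA10 from −0.47 to 0.0582 and PTPRG from −0.0097 to 0.0747 without a library, and PTPRG was −0.0064 under upper-quartile scaling. CA2, CA9 and CA13 kept their sign in the alternatives run for each and stayed short of the threshold. Calls over all genes ran from 313 (without heat stress replicate 3) to 3690 (without heat stress replicate 1), with 1738, 445 and 1232 without thermoneutral replicates 1, 2 and 3 and 1467 without heat stress replicate 2. Other settings gave 2722 to 3926. Upper-quartile scaling called 1265 higher and 1789 lower in place of 1602 and 1490. Acid-base transport calls ran from 0 to 12 and hypoxia list calls from 1 to 5 without a library, and from 7 to 10 and 4 to 6 in other settings.

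The 22 list genes past the threshold that the naming rule gave kept direction in all 286 alternative values. Since these genes were chosen by passing the main fit, and the alternatives reuse its libraries, the kept direction says little. Of the 286 values 87 missed the threshold, 80 of them in fits without a library. BNIP3 and LDHA, called in the main fit but added after their values were seen, are not among the 22, and their values in the alternatives are not reported here. The cause of the lost calls was not tested, and fits without a library hold 5 samples. Levels as CPM per listed kilobase kept the order of the members but placed CA8 at 1.71 against 2.88 for CA9. At 11 to 62 counts a library, CA6 and CA13 carry counting error of a size that CA4 and CA2 do not.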
